A study of Mus musculus with 6 samples.

Results

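The BRCA and Fanconi repair genes described here are Brca1, Brca2, Bard1, Palb2, Fancd2, Fanci, Blm, Xrcc2 and Chek1, 9 of the 15280 genes in the expression table. They were chosen by symbol, as genes of homologous recombination, Fanconi repair and the replication checkpoint, and each symbol had its own row. The choice was made with earlier results of these data known. Expression was measured by RNA-Seq in 6 libraries from 3 female BK5.ATF3 mice, in which a bovine keratin 5 promoter drives the transcription factor ATF3 in basal epithelial cells. From each mouse, 1 mammary tumor (T11035, T11640 and T9232) and the normal gland beside it (M11035, M11640 and M9232) were sequenced, so n = 3 for each tissue and each pair shares an animal. The mice had raised 1 litter. Tumors arose at 6 to 12 months of age and were taken at a length of 1.5 cm. Glands and tumors both carried the transgene and the libraries hold no wild-type tissue, so the comparison is of tumor with gland within transgenic mice.

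Homologous recombination repairs a broken DNA end by copying the sister chromatid, and it is used mainly in dividing cells, after the DNA has been replicated. BRCA1 and its partner BARD1 act early at the break, PALB2 links BRCA1 to BRCA2, and BRCA2, with helpers such as XRCC2, prepares the single-stranded end for strand exchange. FANCD2 and FANCI form the pair that is ubiquitinated when an interstrand crosslink stalls a replication fork, BLM is the helicase that unwinds recombination intermediates, and CHK1, the product of Chek1, is the kinase that halts the cell cycle when replication is disturbed. Inherited loss of BRCA1, BRCA2 or PALB2 predisposes to breast cancer in humans, and many of these genes are transcribed mostly in S and G2 phase.

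Of these 9 genes, Chek1 was the 1 that passed both thresholds, with 2.96-fold more transcript in the tumors. Bard1 and Fancd2 passed the adjusted p alone, with rises of 0.93 and 0.83 on the log2 scale that stayed under the fold threshold. Brca1, Blm, Palb2, Fanci, Brca2 and Xrcc2 did not pass. A gene was called at a Benjamini-Hochberg adjusted p of at most 0.05, over all 15280 genes, in limma's test on log2(CPM + 0.5), together with a log2 fold change of at least 1 in either direction. CPM are fragments scaled to the effective library size, and log2 fold changes are tumor minus gland on the log2(CPM + 0.5) scale, which understates the change of low genes. Of the 9, edgeR and DESeq2 each called 2 higher, Chek1 and Bard1, where they called 14.6% and 14.7% of all genes higher. By the limma rule 14.5% of all genes were called higher in the tumors and 13.7% lower, against 1 and 0 of the 9. The adjusted p alone was passed by 21.6% of all genes upward and 19.6% downward, against 3 and 0 of the 9, and with limma's unadjusted p 5 of the 9 were higher and 0 lower, where 25.6% and 24.2% of all genes were. The median log2 fold change was 0.59 over the 9 genes and -0.00276 over all genes. In bulk tissue RNA, more or fewer cells of a type and more or less RNA per cell cannot be told apart.

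The libraries held 4750989 to 7806908 fragments on genes, and each of the 9 genes had at least 21 fragments in every library, well above a floor of 3 fragments (0.393 to 0.610 CPM). Each tissue had a library that stood low for all 9 genes. T9232 was the lowest tumor for 9 of 9 members, against 33.9% of the 14712 genes averaging 1 CPM or more, and M11640 was the lowest gland for 9 of 9, against 35.5%. In related lists T9232 was the lowest tumor for 7 of 7 mismatch repair, 15 of 23 checkpoint, 25 of 41 homologous recombination and 7 of 19 Fanconi anemia genes, and M11640 the lowest gland for 6, 10, 19 and 8 of them. T9232 was lowest for 8 of 16 base excision repair, 5 of 15 nucleotide excision repair and 3 of 9 end joining genes. M11640 was the lowest gland for 9, 5 and 3 of these. The 9 genes together summed to 147, 116 and 149 CPM in glands M11035, M11640 and M9232 and to 254, 208 and 135 CPM in T11035, T11640 and T9232. Tumor T9232 was under its own gland in this sum, and T11035 and T11640 were above theirs. Without Brca2, the other 8 summed to 100.1 CPM in M9232 and 105 CPM in T9232. Brca1, Palb2, Fanci and Xrcc2 were also lower in T9232 than in M9232. Bard1, Fancd2, Blm and Chek1 were higher, and Chek1 rose most, from 11.5 CPM in M9232 to 20.5 CPM in T9232. The median log2 ratio of tumor over gland across the 9 was 0.79, 0.98 and -0.00417 for the T11035, T11640 and T9232 mice.

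**Figure D1:**
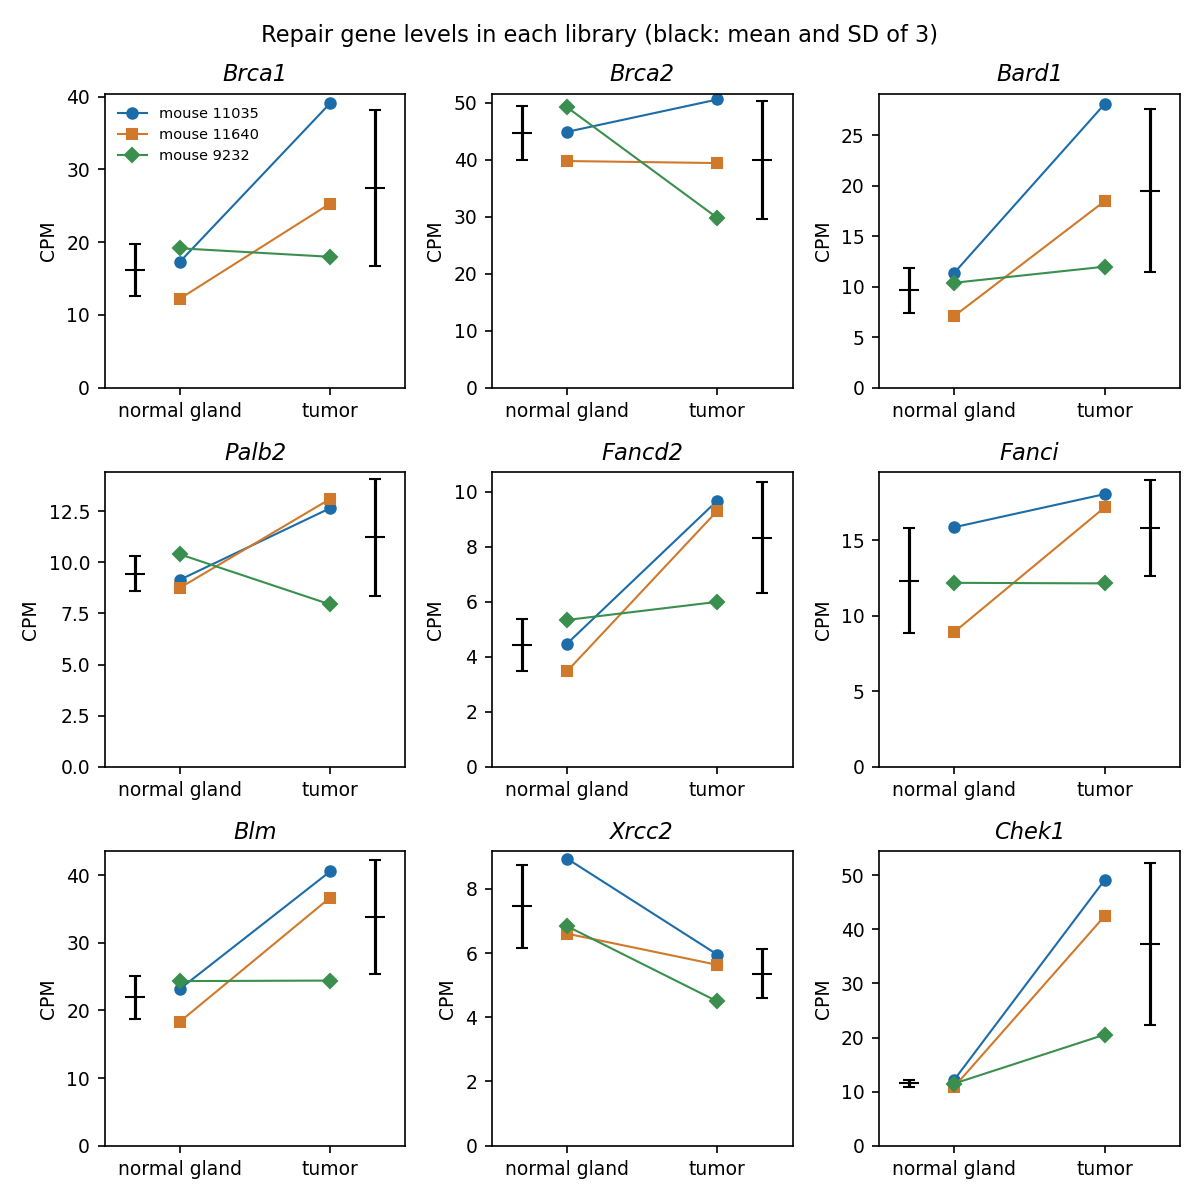
CPM (linear axis from 0) of the 9 genes in the normal gland and the tumor, 1 panel a gene, with a line and a symbol for each mouse and black bars for the mean ± SD of 3. The green diamond of T9232 is the lowest tumor in every panel, and the 3 tumors lie above the 3 glands for Bard1, Fancd2, Blm (narrowly) and Chek1 and below them for Xrcc2.

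Promoter sequences are shown for the called gene, Chek1, for the BRCA1-BARD1 pair, which act as one complex, and for Brca2, whose fold change lay near 0. RefSeq's promoter table (GRCm38.p6) held 7 of the 9 genes, with no entry for Fancd2 or Xrcc2. Each sequence runs 5′ to 3′ along the gene, from 250 bases before its start to 50 after, at chr9:36726609-36726908 on the minus strand for Chek1, chr11:101551906-101552205 on the minus strand for Brca1, chr1:71102923-71103222 on the minus strand for Bard1 and chr5:150522371-150522670 on the plus strand for Brca2. Capitals mark matches, on either strand, to the letters of E2F, CHR, CCAAT, CRE and AP-1 motifs.
Chek1 promoter: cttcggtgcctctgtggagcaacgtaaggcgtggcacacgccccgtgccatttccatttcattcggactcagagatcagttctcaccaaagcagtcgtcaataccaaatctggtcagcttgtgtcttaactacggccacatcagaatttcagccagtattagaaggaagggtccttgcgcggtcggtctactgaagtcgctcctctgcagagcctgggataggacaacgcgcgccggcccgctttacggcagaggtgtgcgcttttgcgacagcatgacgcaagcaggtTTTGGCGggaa
Brca1 promoter: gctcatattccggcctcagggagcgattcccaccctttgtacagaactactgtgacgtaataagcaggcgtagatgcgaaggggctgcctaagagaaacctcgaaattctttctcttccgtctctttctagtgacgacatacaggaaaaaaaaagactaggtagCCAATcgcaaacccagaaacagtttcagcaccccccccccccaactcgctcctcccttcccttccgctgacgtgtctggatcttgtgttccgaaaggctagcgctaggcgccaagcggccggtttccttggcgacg
Bard1 promoter: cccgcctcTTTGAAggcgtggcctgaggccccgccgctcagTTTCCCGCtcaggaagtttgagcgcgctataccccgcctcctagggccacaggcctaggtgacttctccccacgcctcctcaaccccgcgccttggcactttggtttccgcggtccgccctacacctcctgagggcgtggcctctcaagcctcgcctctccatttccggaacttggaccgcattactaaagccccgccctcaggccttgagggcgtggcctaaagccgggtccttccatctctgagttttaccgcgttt
Brca2 promoter: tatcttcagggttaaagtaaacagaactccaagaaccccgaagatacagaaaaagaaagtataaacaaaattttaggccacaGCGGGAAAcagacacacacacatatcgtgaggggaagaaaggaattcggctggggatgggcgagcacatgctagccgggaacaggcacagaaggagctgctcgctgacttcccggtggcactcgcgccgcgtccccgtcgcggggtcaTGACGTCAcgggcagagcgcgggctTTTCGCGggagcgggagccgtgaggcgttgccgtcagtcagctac

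E2F factors and the CHR element are known to time transcription in the cell cycle. The E2F letters searched were TTTCCCGC, TTTGGCGC, TTTCGCGC and TTTGCCGC, found in 2.26% of 32851 promoters and in 2 of the 7 available here. Bard1 holds one from base -209 and Brca2 one, on the other strand, from base -168, counted with the first base of the transcript as base 1. A form made of the first 7 of these letters was added after the sequences were seen and overlaps every longer match. It was found in 6.70% of all promoters and in 3 of the 7, which added Chek1 at base 40 and another match in Brca2 at base 6. The CHR letters TTTGAA or TTCGAA were in 19.2% of all promoters and, among the 7, in Bard1 alone, from base -242. CCAAT was in 37.4% of all promoters and in Brca1, Blm and Palb2, and the CRE letters TGACGTCA were in 1.79% and in Brca2 alone. The AP-1 letters TGACTCA or TGAGTCA were in 5.20% of all promoters and in 0 of the 7. GC boxes (GGGCGG, left in lower case) were in 35.7% of all promoters and in Bard1, Blm, Fanci and Palb2. A match is a string of letters, not a measured binding site.

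Chek1 (mm9, chr9:36516067-36534650, minus strand) encodes the checkpoint kinase that restrains CDC25 phosphatases when replication is blocked. It was measured at 12.2, 10.9 and 11.5 CPM in glands M11035, M11640 and M9232 and 49.1, 42.5 and 20.5 CPM in tumors T11035, T11640 and T9232. The glands lay close together, and the lowest tumor, T9232, was above the highest gland. Means were 11.5 ± 0.650 CPM in the glands and 37.4 ± 14.96 CPM in the tumors (mean ± SD, n = 3 each), a log2 fold change of 1.56 (95% interval 0.86 to 2.27, adjusted p = 0.00403 by limma). Within the mice, tumor over gland was 4.03 (95% counting interval 3.03 to 5.42) in the T11035 mouse, 3.90 (95% counting interval 2.98 to 5.16) in the T11640 mouse and 1.79 (95% counting interval 1.35 to 2.37) in the T9232 mouse, so the rise was present in 3 of 3 animals and smallest in the last. These intervals cover counting error alone. Without both libraries of the T11640 mouse, a setting added after the values were seen, the log2 fold change was 1.39 and the call was lost (adjusted p = 0.0670 by limma). Over all settings its adjusted p ran from 8.70e-06 to 0.0670, and it was called in 17 of 18. Per kb of transcript, Chek1 stood at 3.39 ± 0.191 CPM in the glands, below Blm and Brca2 alone, and at 11.0 ± 4.40 CPM in the tumors, the highest mean of the 9, with a range that overlapped that of Blm.

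BRCA1 and BARD1 are RING proteins that together form a ubiquitin ligase at DNA breaks. Brca1 (mm9, chr11:101350078-101413269, minus strand) was measured at 17.3, 12.2 and 19.2 CPM in glands M11035, M11640 and M9232 and 39.1, 25.3 and 17.98 CPM in tumors T11035, T11640 and T9232. Tumors T11035 and T11640 were above every gland, and T9232 lay between the glands. The means were 16.2 ± 3.58 CPM in the glands and 27.5 ± 10.7 CPM in the tumors (mean ± SD, n = 3 each). The log2 fold change of 0.70 (95% interval 0.01 to 1.38) did not pass, with an adjusted p of 0.0947 by limma. Without both libraries of the T9232 mouse, also added after the values were seen, Brca1 passed both thresholds (log2 fold change 1.09, adjusted p = 0.0352 by limma). Its adjusted p over all settings ran from 0.0352 to 0.378.

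Bard1 (mm9, chr1:71074072-71149720, minus strand) had the same order among the tumors as Brca1, at 11.4, 7.10 and 10.4 CPM in glands M11035, M11640 and M9232 and 28.1, 18.5 and 12.0 CPM in tumors T11035, T11640 and T9232. Here the groups did not overlap, although T9232 exceeded the highest gland by little. The means were 9.63 ± 2.24 CPM in the glands and 19.5 ± 8.11 CPM in the tumors (mean ± SD, n = 3 each), a log2 fold change of 0.93 (95% interval 0.19 to 1.66, adjusted p = 0.0474 by limma). The size of this change sat at the fold threshold, and the call turned on the method. edgeR's quasi-likelihood test on the recovered fragments gave 1.02 (adjusted p = 0.0403) and called Bard1 higher, where it called 14.6% of all genes, and without T9232 limma gave 1.23 (adjusted p = 0.0198). Bard1 was called in 5 of 18 settings, with an adjusted p from 0.0198 to 0.271. In the T9232 mouse alone, tumor over gland was 1.15 (95% counting interval 0.832 to 1.60) for Bard1 and 0.939 (95% counting interval 0.730 to 1.21) for Brca1, both within counting error of 1.

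The ratio of Bard1 to Brca1, both in CPM, was 0.659, 0.581 and 0.543 in glands M11035, M11640 and M9232, against 0.719, 0.731 and 0.667 in T11035, T11640 and T9232. The ratio averaged 0.594 ± 0.0591 in the glands and 0.705 ± 0.0341 in the tumors (mean ± SD, n = 3 each), and its value in each tumor was above that in any gland. The gap was narrow, with 56 Bard1 and 85 Brca1 fragments in M11035 (0.659) and 80 and 120 fragments in T9232 (0.667). No counting interval was made for this ratio, so the gap was not set against counting error. Ratios of this kind were not adjusted for transcript length, so they are read only between tissues, and the pairs were chosen with earlier results known. Exact two-sided permutation tests gave p = 0.1 for each of the 7 pairs, before and after Benjamini-Hochberg adjustment, which is the smallest p that 3 against 3 libraries allow, so the tests could not reach 0.05.

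Brca2 (mm9, chr5:151325205-151372321, plus strand), which acts at the strand exchange step, was measured at 44.9, 39.8 and 49.2 CPM in glands M11035, M11640 and M9232 and 50.6, 39.4 and 29.8 CPM in tumors T11035, T11640 and T9232. The tumors ranged on both sides of the glands. The means were 44.7 ± 4.72 CPM in the glands and 40.0 ± 10.4 CPM in the tumors (mean ± SD, n = 3 each), a log2 fold change of -0.19 (95% interval -0.67 to 0.30, adjusted p = 0.517 by limma), and the interval excludes a 2-fold rise. The sign depended on the T9232 mouse, where tumor over gland was 0.606 (95% counting interval 0.507 to 0.722). Without T9232 the log2 fold change was 0.01.

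Palb2 (mm9, chr7:129250776-129276460, minus strand), the bridge between BRCA1 and BRCA2, was measured at 9.15, 8.75 and 10.4 CPM in glands M11035, M11640 and M9232 and 12.7, 13.1 and 7.94 CPM in tumors T11035, T11640 and T9232. Again T11035 and T11640 were above the glands and T9232 below them. The means of 9.43 ± 0.857 CPM in the glands and 11.2 ± 2.86 CPM in the tumors (mean ± SD, n = 3 each) gave a log2 fold change of 0.21 (95% interval -0.34 to 0.77, adjusted p = 0.519 by limma).

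Xrcc2 (mm9, chr5:25195630-25211643, minus strand), which also acts in strand exchange, was the member with the lowest fold change, at 8.95, 6.61 and 6.84 CPM in glands M11035, M11640 and M9232 and 5.95, 5.64 and 4.495 CPM in tumors T11035, T11640 and T9232. All 3 tumors were below all 3 glands, and below their own gland in 3 of 3 mice. The means were 7.46 ± 1.29 CPM in the glands and 5.36 ± 0.767 CPM in the tumors (mean ± SD, n = 3 each), and the log2 fold change of -0.44 (95% interval -0.98 to 0.10) did not pass (adjusted p = 0.173 by limma). Counts were low, at 30 to 50 fragments a library, and the counting interval of the tumor over gland ratio in the T9232 mouse ran from 0.404 to 1.05.

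Rad51d (Rad51l3 in the table), the partner that binds XRCC2, was called lower, from 49.5 ± 1.89 CPM in the glands to 15.04 ± 1.39 CPM in the tumors (SD, n = 3 each; log2 fold change -1.69, adjusted p = 7.97e-05 by limma). Rad51c, of the same group of proteins, stood at 4.75 ± 1.74 CPM in the glands and 5.38 ± 2.66 CPM in the tumors (mean ± SD, n = 3 each) and did not pass (adjusted p = 0.866 by limma).

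Ratios within each library do not depend on the scaling between libraries. The Brca1 to Brca2 ratio was 0.360 ± 0.0461 in the glands and 0.672 ± 0.0887 in the tumors, Palb2 to Brca2 0.212 ± 0.00816 in the glands and 0.283 ± 0.0435 in the tumors, and Xrcc2 to Rad51d 0.151 ± 0.0293 in the glands and 0.360 ± 0.0732 in the tumors (mean ± SD, n = 3 each). In each of these ratios the tissues did not overlap, so Brca1 and Palb2 transcripts were more abundant relative to Brca2 in all 3 tumors. How often ratios of other gene pairs fail to overlap was not counted. As single genes, 27.6% of all genes did not overlap upward and 26.3% downward.

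**Figure D2:**
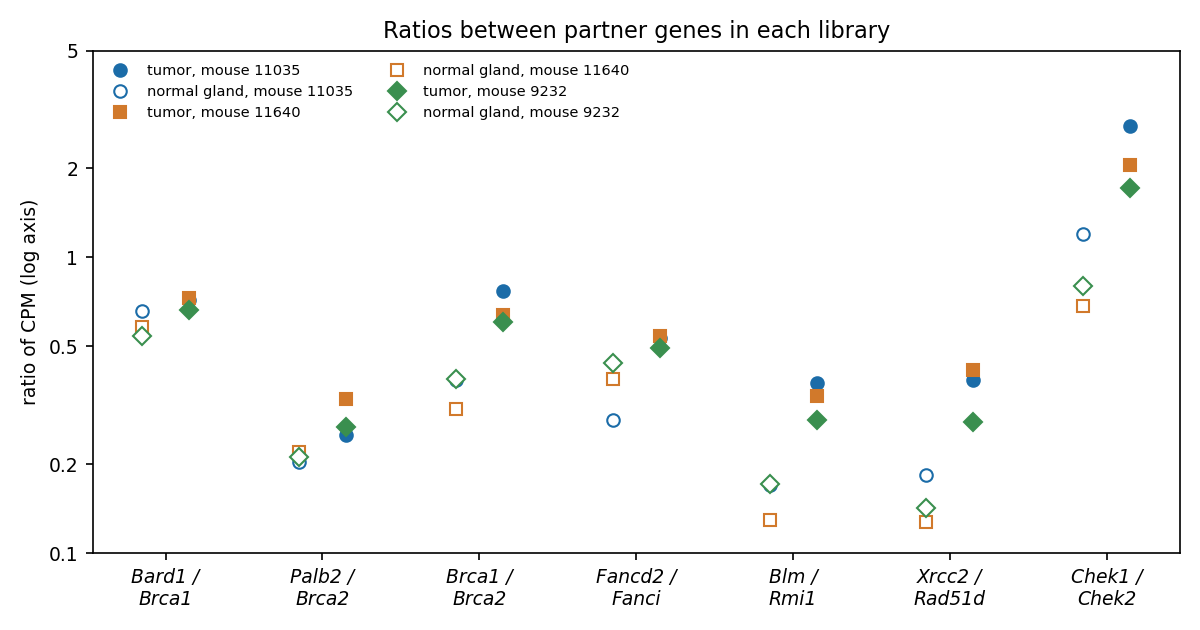
Ratio of CPM between 7 pairs of partner genes (log axis) in each library, with glands as open and tumors as filled symbols and 1 shape and color per mouse. In each pair the 3 tumors lie above the 3 glands, with the narrowest gap between highest gland and lowest tumor for Bard1 over Brca1 (0.659 to 0.667) and the widest, on the log axis, for Blm over Rmi1 (0.171 to 0.282). The pairs were chosen with earlier results known, and other gene pairs were not counted.

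Fancd2 (mm9, chr6:113481676-113547011, plus strand) encodes a member of the FANCD2-FANCI pair, which is ubiquitinated and recruits nucleases to crosslinks. It was measured at 4.47, 3.47 and 5.33 CPM in glands M11035, M11640 and M9232 and 9.68, 9.31 and 5.99 CPM in tumors T11035, T11640 and T9232. The tumors did not overlap the glands, with T9232 just above the highest of them. The means were 4.43 ± 0.934 CPM in the glands and 8.33 ± 2.03 CPM in the tumors (mean ± SD, n = 3 each), a log2 fold change of 0.83 (95% interval 0.20 to 1.46, adjusted p = 0.0400 by limma). With the mouse as a block the adjusted p was 0.0639, and over all settings it ran from 0.0274 to 0.285, with Fancd2 called in 3 of 18, among them without T9232. Exons of Fancd2 overlap 4931417G12Rik in the table, and fragments there may have been counted for either gene or neither.

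Fanci (mm9, chr7:86536815-86595151, plus strand), the partner of FANCD2, was measured at 15.9, 8.92 and 12.2 CPM in glands M11035, M11640 and M9232 and 18.05, 17.2 and 12.1 CPM in tumors T11035, T11640 and T9232. The tissues overlapped. Means of 12.3 ± 3.47 CPM in the glands and 15.8 ± 3.19 CPM in the tumors (mean ± SD, n = 3 each) gave a log2 fold change of 0.36 (95% interval -0.24 to 0.96, adjusted p = 0.301 by limma), and exons of Fanci overlap Polg. Fancd2 over Fanci averaged 0.370 ± 0.0798 in the glands and 0.524 ± 0.0263 in the tumors (mean ± SD, n = 3 each), without overlap.

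Blm (mm9, chr7:87599879-87680005, minus strand), the helicase mutated in Bloom syndrome, was measured at 23.2, 18.3 and 24.3 CPM in glands M11035, M11640 and M9232 and 40.6, 36.7 and 24.4 CPM in tumors T11035, T11640 and T9232. Tumors T11035 and T11640 were well above the glands, while T9232 and its own gland were almost equal, a ratio of 1.003 (95% counting interval 0.806 to 1.25). Means of 21.95 ± 3.19 CPM in the glands and 33.9 ± 8.43 CPM in the tumors (mean ± SD, n = 3 each) gave a log2 fold change of 0.59 (95% interval 0.07 to 1.12), which did not pass (adjusted p = 0.0676 by limma). Its complex partner Rmi1 passed the adjusted p downward, with a log2 fold change of -0.48 (adjusted p = 0.0263 by limma). Rmi1 stood at 140.2 ± 3.59 CPM in the glands and 101 ± 12.3 CPM in the tumors (mean ± SD, n = 3 each). Blm over Rmi1 averaged 0.157 ± 0.0240 in the glands and 0.333 ± 0.0479 in the tumors. The other partner, Rmi2 (A630055G03Rik in the table), had a log2 fold change of -0.04 (adjusted p = 0.944 by limma).

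The groups of 3 did not overlap for Chek1, Bard1, Fancd2 and Blm upward and for Xrcc2 downward, that is for 4 and 1 of 9. Over all genes the shares were 27.6% and 26.3%. The levels of the genes can be compared only per transcript length. In the glands, Blm (4.51 ± 0.655 CPM per kb, mean ± SD, n = 3) and Brca2 (4.16 ± 0.441) led, and the difference between them was within their spread. Fanci (2.67 ± 0.752), Palb2 (2.52 ± 0.229), Brca1 (2.47 ± 0.545) and Xrcc2 (2.30 ± 0.397) followed Chek1 and did not differ from one another beyond their spread. Bard1 (1.70 ± 0.396) and Fancd2 (0.803 ± 0.169) were lowest. In the tumors Chek1 was followed by Blm (6.96 ± 1.73 CPM per kb), then by Brca1 (4.18 ± 1.63), Brca2 (3.73 ± 0.970), Bard1 (3.45 ± 1.43), Fanci (3.42 ± 0.691) and Palb2 (3.00 ± 0.763) within their spread, and by Xrcc2 (1.65 ± 0.236) and Fancd2 (1.51 ± 0.368).

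**Figure D3:**
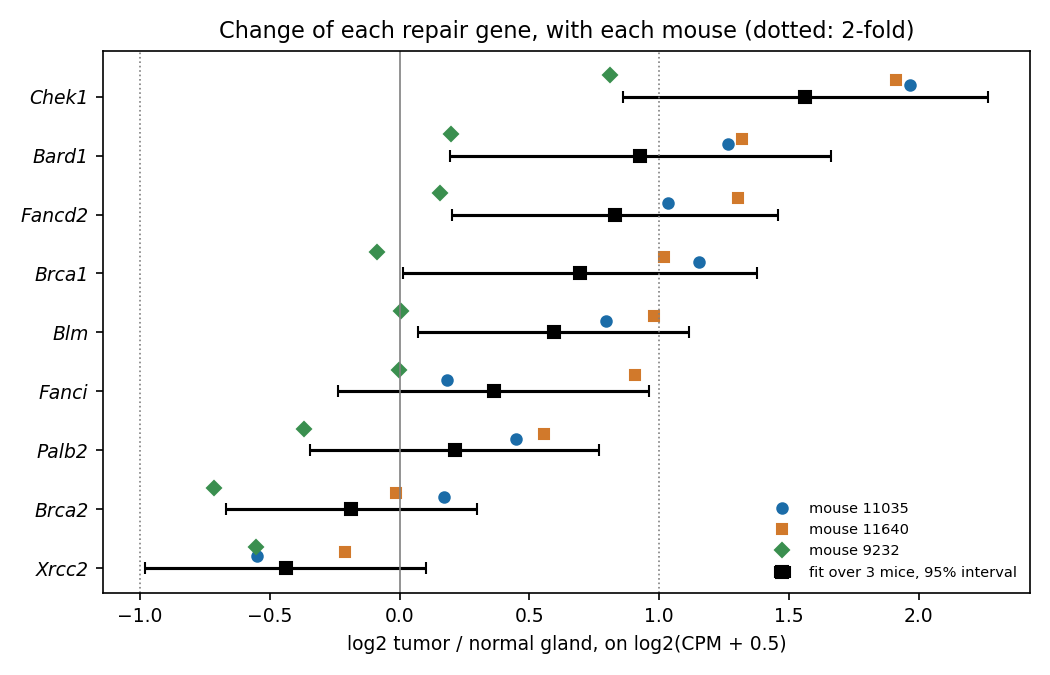
Log2 fold change of each of the 9 genes (tumor minus gland, log2(CPM + 0.5)) as a black square with its 95% interval from limma, the 3 mice as colored symbols and dotted lines at a 2-fold difference. The interval of Chek1 lies farthest above 0, those of Bard1, Fancd2, Brca1 and Blm lie above 0 and those of Palb2, Fanci, Brca2 and Xrcc2 cross it.

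The wider repair network was described with 7 lists of 131 genes outside the 9, of which 9 were called higher and 3 lower, with a median log2 fold change of 0.01. Over all 15280 genes, 2212 (14.5%) were called higher and 2097 (13.7%) lower. Homologous recombination had 7 genes called higher and 1 lower of 42 (median -0.09). That is 16.7% higher, near the 14.5% of all genes, and the count ran from 2 to 9 when libraries or mice were left out. Among those called higher were Rbbp8, Exo1 and Dna2, which resect broken ends, Eme1 and Gen1, which cut joined DNA intermediates, and Fignl1, an ATPase. Rbbp8 rose most, with 38.0, 46.2 and 53.2 CPM in glands M11035, M11640 and M9232 and 287, 238 and 189 CPM in tumors T11035, T11640 and T9232 (log2 fold change 2.36, adjusted p = 4.15e-05 by limma). Exo1 stood at 2.75 ± 0.675 CPM in the glands and 11.4 ± 3.17 CPM in the tumors (SD, n = 3 each; log2 fold change 1.86, adjusted p = 0.00138). The helicase Brip1, a BRCA1 partner, did not pass at 0.55 (adjusted p = 0.0854 by limma). In the MRE11 complex, which senses breaks, the nuclease Mre11a passed the adjusted p upward at 0.48 (0.0335) and Nbn downward at -0.51 (0.0492), both under the fold threshold, and Rad50 did not pass at -0.37 (0.0648).

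In the Fanconi anemia list, 0 of 19 genes were called in either direction (median 0.10), against 14.5% of all genes upward and 13.7% downward. edgeR and DESeq2 also called 0 of the 19. With the adjusted p alone, and likewise with the unadjusted p, limma passed 0 upward and 1 downward, Fancl, the ubiquitin ligase that acts on FANCD2. Fancl had a log2 fold change of -0.73 (adjusted p = 0.0343 by limma) and stood at 22.6 ± 3.52 CPM in the glands and 13.6 ± 3.23 CPM in the tumors (mean ± SD, n = 3 each). Exons of Fancl overlap Vrk2. Ube2t, the conjugating enzyme that works with it, had few fragments and a log2 fold change of 0.58 (adjusted p = 0.256), and Usp1, which removes the ubiquitin again, 0.19 (0.410). The core complex genes Fanca and Fancm did not pass either, at 0.23 (adjusted p = 0.619) and -0.43 (0.166).

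Around Chek1, the checkpoint and damage signaling list had 2 genes called higher and 1 lower of 23 (median 0.01). These are 8.7% and 4.3%, against 14.5% and 13.7% of all genes. Cdc25c, a target of CHK1, rose from 1.56 ± 1.14 to 7.86 ± 1.71 CPM (SD, n = 3 each; log2 fold change 2.14, adjusted p = 0.00318 by limma, or 0.0503 without both libraries of the T11640 mouse), and H2afx, the histone marked at breaks, was the other called higher at 1.05 (adjusted p = 0.0185). Rad9b, a subunit of a checkpoint clamp, was called lower at -1.71 (adjusted p = 0.00155), and its exons overlap Pptc7. Of the kinases that act before CHK1, Atr did not pass and Atm was lower. Atr was measured at 149.8, 146 and 144 CPM in glands M11035, M11640 and M9232 and 147, 131 and 103 CPM in tumors T11035, T11640 and T9232 (log2 fold change -0.22, adjusted p = 0.295), and Atm passed the adjusted p downward at -0.61 (0.0176). The adaptor Clspn, which ATR needs to activate CHK1, was at 1.16 without passing (adjusted p = 0.0558), and passed both thresholds with the mouse as a block (0.0216, range over the alternatives 0.0159 to 0.262).

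Chek2, the other checkpoint kinase, was measured at 10.2, 15.9 and 14.4 CPM in glands M11035, M11640 and M9232 and 17.7, 20.7 and 12.0 CPM in tumors T11035, T11640 and T9232, with overlapping tissues (log2 fold change 0.30, adjusted p = 0.395 by limma). Chek1 over Chek2 was 1.20, 0.687 and 0.800 in glands M11035, M11640 and M9232, against 2.78, 2.05 and 1.71 in T11035, T11640 and T9232. The ratio averaged 0.896 ± 0.269 in the glands and 2.18 ± 0.545 in the tumors (mean ± SD, n = 3 each), and the lowest tumor was above the highest gland. Trp53bp1, which favors end joining over resection, had a log2 fold change of -0.07 (adjusted p = 0.711 by limma), and its exons overlap Tubgcp4.

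Other repair pathways had few calls, where limma called 14.5% of all genes higher and 13.7% lower. End joining, nucleotide excision repair and mismatch repair had 0 called genes by limma of 9, 15 and 7, where the adjusted p alone was passed by 0, 3 and 1 upward and by 1, 1 and 1 downward. The unadjusted p was passed by 1, 3 and 1 upward and by 2, 3 and 2 downward, and edgeR and DESeq2 also called 0. Base excision repair had 1 of 16, the glycosylase Neil2, called lower at -1.34 (adjusted p = 0.00994, or 0.0825 without both libraries of the T11640 mouse). The largest values under the fold threshold were those of Ddb1, a sensor of UV damage, at 0.97 (adjusted p = 0.00260), and Polb, the gap-filling polymerase of base excision repair, at 0.95 (0.00372). The medians of these 4 lists ran from -0.19 to 0.08.

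**Figure D4:**
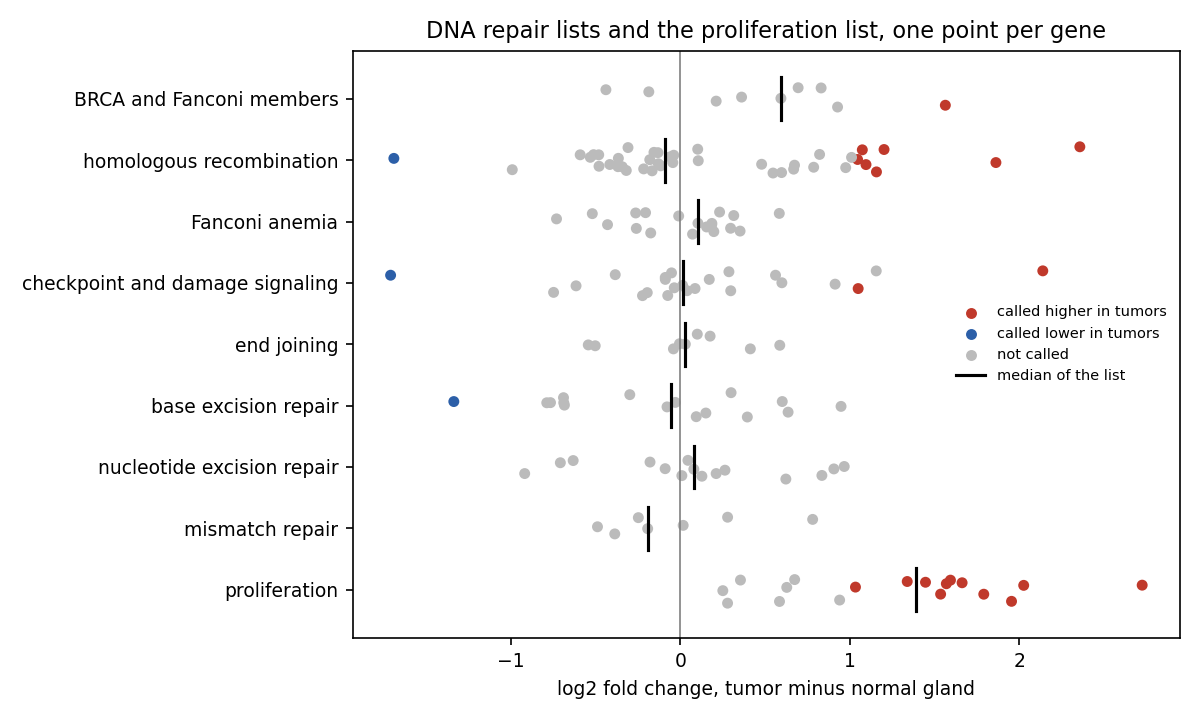
Log2 fold change (tumor minus gland, log2(CPM + 0.5)) of each gene of the 9 members, the 7 repair lists and the proliferation list, 1 point a gene, with called genes in color and a bar at the median. The repair lists center near 0, the 9 members at 0.59 and the proliferation genes at 1.39.

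Proliferation genes were set beside the 9 members, since repair by recombination belongs to dividing cells. Of 18 such genes, 11 were called higher and 0 lower, with a median log2 fold change of 1.39. The median was 1.24, 1.75 and 0.86 for the T11035, T11640 and T9232 mice in turn, so these genes were also nearest to the gland in the T9232 mouse. T9232 was the lowest tumor for 16 of the 18 and M11640 the lowest gland for 15. Ccnb1, the mitotic cyclin, was at 2.72 (adjusted p = 2.54e-04 by limma), and Mki67, the gene of the Ki-67 antigen, at 1.03 (0.0225). Mki67 was called in 13 of 18 settings, and lost without M11640 (0.0519), T11035 (0.0825) or T11640 (0.0748), or without both libraries of the T11035 (0.0526) or T11640 (0.148) mouse. edgeR and DESeq2 each called 11 of the 18 higher and 0 lower, and 0 had a log2 fold change under 0. Pcna, the polymerase clamp, did not pass at 0.25 (0.267), nor did E2f1 at 0.35 (0.404). Not every gene of the list was higher in every tumor than in its own gland, as Pcna stood at 204 CPM in M9232 and 194 CPM in T9232.

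The mean log2(CPM + 0.5) of the proliferation list was 4.21, 3.50 and 3.97 in glands M11035, M11640 and M9232, against 5.41, 5.19 and 4.81 in the 3 tumors of these mice, a difference of 1.24. Each member's log2 level was then taken relative to this mean in its own library. On this scale Chek1 was on average 0.32 higher in the tumors than in the glands, with 0.76, 0.22 and -0.03 for the T11035, T11640 and T9232 mice and overlapping tissues. The means of the other 8 members were lower in the tumors, although Bard1 was 0.06 higher in the T11035 mouse. The mean differences, tumor minus gland, were -0.32 for Bard1, -0.41 for Fancd2, -0.55 for Brca1, -0.65 for Blm and -0.88 for Fanci. They were -1.03 for Palb2, -1.43 for Brca2 and -1.68 for Xrcc2. No test was made on these relative levels, and the part of cell division in the members' values was not tested.

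**Figure D5:**
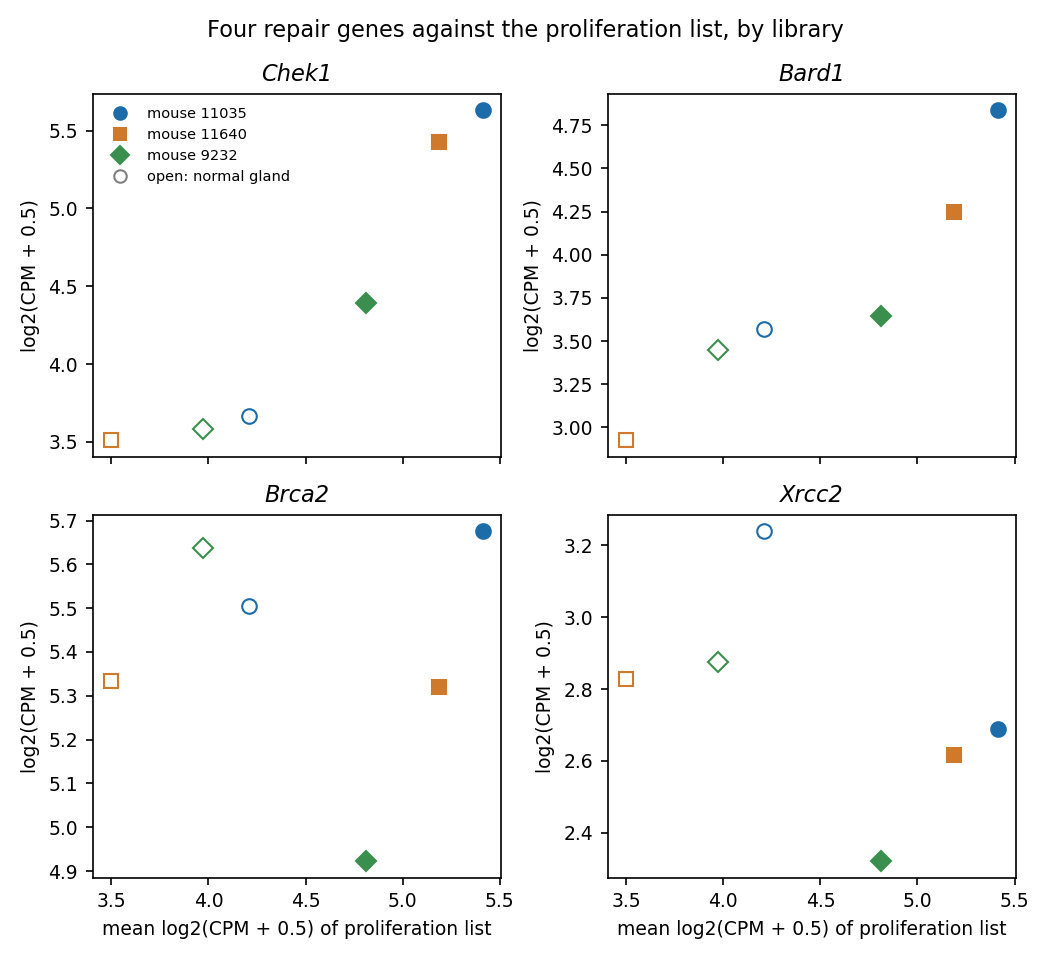
Log2(CPM + 0.5) of Chek1, Bard1, Brca2 and Xrcc2 (vertical axes, which do not start at 0) against the mean log2(CPM + 0.5) of the 18 proliferation genes in each of the 6 libraries, with open symbols for glands, filled ones for tumors and 1 shape and color per mouse. The tumors stand to the right of the glands in each panel, and above them for Chek1 and Bard1, mixed with them for Brca2 and below them for Xrcc2.

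Markers of other cell types differed between the tissues along with these genes, and every epithelial and adipocyte marker was above 3 fragments in at least 1 gland. Epithelial markers, called higher for 7 of 10, summed to 251 to 566 CPM in the glands and 2183 to 2796 CPM in the tumors, and adipocyte markers, lower for 10 of 10, to 5379 to 10514 CPM in the glands and 164 to 250.1 CPM in the tumors. B cell markers were lower for 8 of 8, summing to 313 to 764 CPM in the glands and 9.29 to 12.1 CPM in the tumors, and 2 of them were at or under 3 fragments in all tumors. T cell markers were lower for 8 of 8, at 191 to 485 CPM in the glands and 29.8 to 49.3 CPM in the tumors. M11640, the lowest gland for every member, was also the lowest gland for 8 of 8 B cell, 8 of 8 T cell and 5 of 6 neutrophil markers. It was lowest for 1 of 10 epithelial markers and for 0 of the adipocyte, macrophage, endothelial, fibroblast and skeletal muscle markers. T9232, the lowest tumor for every member, was lowest for 2 of 8 B cell, 0 of 8 T cell and 7 of 10 adipocyte markers. Among genes averaging 1 CPM or more, M11640 was the lowest gland for 35.5% and T9232 the lowest tumor for 33.9%. Neutrophil markers were called higher for 5 of 6, summing to 78.3 to 170.4 CPM in the glands and 829.7 to 1455 CPM in the tumors. Fibroblast markers (3 higher and 1 lower of 7) summed to 742 to 3175 CPM in the glands and 5571 to 6102 CPM in the tumors, macrophage markers (0 and 1 of 8) to 251 to 868 CPM in the glands and 411 to 678 CPM in the tumors, and endothelial markers (0 and 3 of 7) to 362 to 494 CPM in the glands and 207 to 295 CPM in the tumors. Skeletal muscle markers (0 and 1 of 6 by limma, 0 and 6 by edgeR) summed to 3819, 1522 and 4.24 CPM in glands M11035, M11640 and M9232, against 7.08 to 13.8 CPM in the tumors. Relative to the mean log2 level of the epithelial markers, which was 2.13 higher in the tumors, the 9 members were all lower in the tumors, from -0.57 for Chek1 to -2.57 for Xrcc2. The log2 fold changes of these 10 markers ran from 0.10 to 5.75, with a median of 1.51, under the 1.56 of Chek1. The relative levels therefore depend on which markers are averaged. The part of the cell makeup in the members' values was not tested.

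The genes whose pattern was most like the mean of the 9, after centering each on its own mean, were Wdr3, Pole, Atad2, Nek5 and Atad2b, with Pearson r from 0.995 to 0.996 over the 6 libraries among 14703 genes. This is a description, since the libraries share 3 mice and 2 tissues and the genes were picked as the closest of many. Pole, the catalytic subunit of a replicative polymerase, was measured at 16.5, 9.91 and 15.3 CPM in glands M11035, M11640 and M9232 and 31.8, 26.1 and 13.9 CPM in tumors T11035, T11640 and T9232. Atad2, a bromodomain ATPase, was measured at 127, 97.9 and 129 CPM in glands M11035, M11640 and M9232 and 231, 192 and 129.8 CPM in tumors T11035, T11640 and T9232. Both had the order seen in the 9 genes, with T9232 the lowest tumor and M11640 the lowest gland. Exons of Wdr3 overlap Gdap2 and Spag17. Of the 5, limma called 0 and passed Nek5 and Atad2 at an unadjusted p under 0.05, DESeq2 called Nek5 and edgeR called 0. Limma gave adjusted p from 0.0556 to 0.410.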

How the data were processed

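RNA-Seq of 3 mammary tumors and the 3 adjacent normal glands of the same BK5.ATF3 mice was analysed, and libraries were grouped by their labels. The authors prepared libraries from total RNA with the Ovation RNA-Seq System V2, mapped read pairs to mm9 and counted fragments on RefSeq genes. The submitters' notes name CASAVA 1.8.2, TopHat2 2.0.3, HTSeq 0.5.3p9 and edgeR 3.6.1, and the strand setting of the counting is not given in the sources used here. The authors deposited a normalized expression signal per gene, CPM on edgeR's effective library size, for 15280 genes, after removing genes under 10 fragments (the lowest total in the table is 11). No other column (0) was left out.

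Every value was a whole multiple of a library's step (100%, tolerance 0.01 of a fragment), which gave back the fragments, 4750989 to 7806908 per library. Counting intervals and floors cover counting error only, while the limma intervals rest on the variation between libraries. Same-tissue libraries differed (chi-square per degree of freedom at least 13.7), so none were copies. The same mouse gave both tissues, so the numbers pair the samples. Deviations from the group means correlated with r = 0.107, 0.151 and 0.0168 for the T11035, T11640 and T9232 mice in turn over 14712 genes. The study does not name the mouse as a term, so the reported fit has none and the blocked fit is an alternative.

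Genes were tested with limma 3.58.1 (R 4.3.3; mean-variance trend, two-sided) on log2(CPM + 0.5), with Benjamini-Hochberg adjustment over all genes, after a test on simulated data. The test was planned for CPM and kept for this signal. edgeR 4.0.16 and DESeq2 1.42.0 on the recovered fragments, and other settings to 17 in all, were alternatives.

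The members and lists were chosen with earlier results of these data known. Genes named are the members, set partners, Mki67, Pcna, E2f1, the highest and lowest called gene of each list (otherwise the highest and lowest value with a mean of at least 1 CPM) and the 5 genes most like the members. Dna2, Eme1, Gen1, Fignl1, Exo1, H2afx, Nbn and Rad50 were named after their values were seen. Older symbols were used where the table holds them, and 3 listed genes (Mutyh, Tdg, Ly6g) had no row. Positions and exon overlaps came from GENCODE vM1 (mm9), and BLAST 2.17.0 found no transcript of another gene at least 95% identical to a member over 500 bases. CPM per kb used the longest coding transcript. Promoters came from RefSeq (GRCm38.p6). A gene of the fixed lists is not reported by name here.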

Additional observations from a re-analysis of the deposited data

How the results depend on the processing

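Over the 17 alternatives, 141 values of the 9 members kept their direction and their side of the threshold, 9 newly passed it (Brca1, Bard1 and Fancd2), 1 lost it (Chek1) and 2 changed sign (Brca2). The count of members called higher was 1 in the main test, 2 with edgeR (Bard1 and Chek1), 2 with DESeq2 and 3 with the adjusted p alone, and ran from 0 to 4 when libraries or mice were left out. It was 3 without T9232, 4 without both libraries of the T9232 mouse and 0 without both of the T11640 mouse (leaving out a mouse was added after the data were seen). Of all 15280 genes, 2212 were called higher in the main test and 2011, 2044 and 1678 in these left-out settings in turn. With mouse as a replicate block the count of members was 1, and the block changed no member's call. Called repair genes, 9 higher and 3 lower, became 20 and 13 with the adjusted p alone, and ran from 2 to 12 higher and from 3 to 5 lower on leaving libraries or mice out, with 10 and 3 under the block. The 11 proliferation genes called higher ran from 8 to 12. Left-out ranges of the log2 fold change crossed 0 for Brca2 (-0.37 to 0.0785, the top without both libraries of the T9232 mouse), Rad51c (-0.30 to 0.72), Fanca (-0.0547 to 0.55), Rmi2 (A630055G03Rik, -0.34 to 0.33) and Trp53bp1 (-0.15 to 0.00555), none of them called. Chek1 ran from 1.32 to 1.94. The cause of these shifts was not tested. With 3 mice, intervals of members not called reached a log2 fold change of 1.66 (Bard1).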
